A study of Mus musculus with 12 samples.

Results

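The synovium of TNFdARE mice was compared with that of WT mice over all genes of the deposited count table. The 6 synovium libraries were taken of 12 in all, 3 from TNFdARE mice and 3 from WT littermates; the other 6 libraries were ileum of the same 2 genotypes. TNFdARE mice carry a Tnf gene that has lost the AU-rich element in the 3′ untranslated region, the change acts in every cell that transcribes Tnf, and the WT littermates carry the normal gene. The labels do not give zygosity. Synovium was taken from the ankle, and the labels call the libraries biological replicates without giving age, sex, pooling or the number of animals per library. The study's title is about regulatory T cells, the gut and the joint.

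AU-rich elements are repeats of the pentamer ATTTA, and decay factors that bind them shorten the life of cytokine mRNAs and hold back their translation. TNF binds 2 receptors, TNFR1 on nearly all cells and TNFR2 mainly on leukocytes and endothelium, and the receptors act through adaptor proteins on the transcription factor NF-kB, which drives cytokines, chemokines, adhesion molecules and its own inhibitors. The healthy synovium is a thin membrane of lining fibroblasts and macrophages, which make the joint's lubricant, over a looser layer of fibroblasts, vessels, fat and nerves. In TNF-driven arthritis it is known to thicken, fill with leukocytes and erode cartilage and bone.

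The genotypes differ by the AU-rich element of Tnf, and its core is shown for that reason. The densest run of pentamers in the 3′ untranslated region of WT Tnf, at chr17:35199679-35199705 on the minus strand of GRCm38 in the last exon of the GENCODE transcript, is written 5′ to 3′ with each ATTTA in capitals. It holds 5 of the 8 pentamers in that region of 764 bases, and the exact ends of the deletion are not recorded in the labels.
Tnf AU-rich run: ATTTAttATTTATTTAttATTTATTTA
Next to it, 2 promoters of chemokine genes described further on are shown, because NF-kB is the textbook route from TNF to both. They are RefSeq sequence of GRCm38.p6 from 150 to 31 bases before the annotated start, on the plus strand at chr5:90891095-90891214 for Cxcl1 and at chr5:90903749-90903868 for Cxcl2. Capitals mark matches of the kappaB consensus, the family of sites that NF-kB is known to bind, on either strand; matches may overlap.
Cxcl1 promoter: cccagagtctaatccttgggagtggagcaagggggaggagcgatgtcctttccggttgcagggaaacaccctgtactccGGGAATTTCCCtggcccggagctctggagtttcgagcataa
Cxcl2 promoter: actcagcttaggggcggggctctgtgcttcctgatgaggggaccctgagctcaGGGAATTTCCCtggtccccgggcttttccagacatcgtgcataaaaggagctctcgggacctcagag
The first match began 71 bases before the start of Cxcl1 and 97 before that of Cxcl2, and in both it overlapped a second match on the opposite strand. In windows from 250 bases before to 50 after the start, the consensus was found in 12.5% of 11660 tested genes with a RefSeq promoter, in 15.4% of those called higher in TNFdARE and in 14.1% of those called lower. The narrower word GGAAATTCC, which overlaps the consensus, stood in 0.48% of all, 1.01% of the higher and 0.411% of the lower genes. Both were searched after the gene values were known, and other spellings of the site, searched earlier, are not given. These shares describe letters in fixed windows and were not tested.

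The synovium libraries held between 16146694 and 16224402 counts each in TNFdARE and between 14289975 and 15004725 each in WT, so a gene at 0 counts in a library was below about 0.185 to 0.21 CPM (counts scaled to a library total of 1000000), the level that 3 counts give. Levels are CPM after TMM scaling, given as mean ± SD over 3 libraries unless each library is listed in the order replicate 1, 2 and 3. Differences are log2 fold changes of TNFdARE against WT ± standard error, also where a gene is said to have risen or fallen by a value, from edgeR's quasi-likelihood F test, two-sided, and "called" means a Benjamini-Hochberg adjusted p under 0.05 over 15599 genes. Replicate 3 of each genotype came from a female and replicates 1 and 2 from males, as read from Xist and 4 Y-linked genes. The sample carried tissue that lies next to the synovium. The summed level of 23 skeletal muscle genes was 13540, 7100 and 3390 CPM in TNFdARE and 36880, 17540 and 20720 CPM in WT, so the genotypes did not overlap. The mitochondrial share of counts was 1.93% to 2% in TNFdARE and 2.21% to 3.15% in WT. The keratinocyte list summed to 71.3 to 89.4 CPM in TNFdARE and 110 to 129 CPM in WT, without overlap; 6 of its 15 genes were tested, with Sbsn and Krtdap called lower and Sfn higher, and its defining markers Krt5 and Krt14 had 0 counts in all 6 libraries while Krt10 had 23 to 41. Because muscle content moved with genotype, every call was repeated with the mean log2 CPM of the muscle genes as a covariate, called the muscle covariate below. The muscle sums did not overlap between the genotypes, so this covariate runs along with genotype. A call can end with it while the log2 fold change hardly moves. The part of muscle in each result was otherwise not tested. In bulk tissue, fewer cells of a type and less RNA per cell cannot be told apart.

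**Figure D1:**
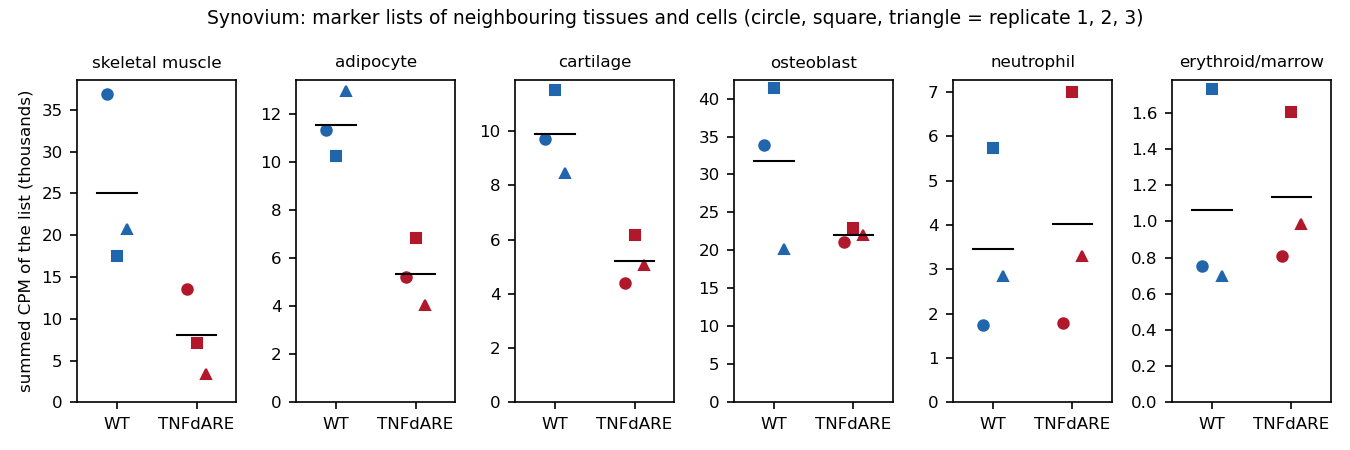
Summed CPM of marker lists for tissues and cells next to the synovium, on an axis in units of 1000 CPM, one point per library with replicate 1, 2 and 3 as circle, square and triangle, and a bar at the mean of 3. Skeletal muscle, adipocyte and cartilage sums were lower in all 3 TNFdARE libraries than in any WT library, and neutrophil and marrow sums were highest in replicate 2 of both genotypes.

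Tnf itself stood at 40, 34.3 and 29.9 CPM in TNFdARE and 2.2, 2.08 and 1.96 CPM in WT. All TNFdARE libraries lay above all WT libraries, and the mean of 34.7 ± 5.09 CPM in TNFdARE and 2.08 ± 0.119 CPM in WT gave a log2 fold change of 4.06 ± 0.15, adjusted p = 6.18e-05. Tnf is at chr17:35199381-35202007 on the minus strand. Its neighbour in the locus, Ltb, the membrane-bound lymphotoxin subunit, stood at 7.88 ± 2.88 CPM in TNFdARE and 12 ± 2.92 CPM in WT (log2 fold change -0.61 ± 0.31, adjusted p = 0.194). Lta, which encodes lymphotoxin alpha, had too few counts to be tested. The TNF receptor genes had smaller log2 fold changes. Tnfrsf1b, which encodes TNFR2, stood at 233, 194 and 214 CPM in TNFdARE and 90.1, 109.8 and 111 CPM in WT and rose by log2 1.04 ± 0.11. Tnfrsf1a, which encodes TNFR1, stood at 236 ± 17.9 CPM in TNFdARE and 178 ± 9.45 CPM in WT and rose by log2 0.41 ± 0.08 (adjusted p = 0.0134). Once the muscle covariate was added, Tnfrsf1a was no longer called. Calls also ended for Tnfrsf1b with all 12 libraries in 1 fit and Tnfrsf1a (0.37) without WT replicate 3, the log2 fold change without that library in brackets. Ltb (adjusted p = 0.0195) was called with the replicate block.

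Most genes listed for TNF receptor and NF-kB signalling were called higher. That list counts Tnf itself as a member and holds parts of the pathway as well as genes that NF-kB induces. In the list of TNF receptors, adaptors and NF-kB genes, 18 of 24 tested members were called higher and 0 lower, with a median log2 fold change of 0.84, where 13.1% of all tested genes were called higher and 10.7% lower and the median over all was 0.003. Traf1, a receptor adaptor that NF-kB induces, stood at 60.5, 61.5 and 53.4 CPM in TNFdARE and 11.8, 12.2 and 12.6 CPM in WT, and its groups were apart by far more than their spread (log2 fold change 2.26 ± 0.09, adjusted p = 6.47e-05). Several inhibitors of NF-kB signalling were among them, while Nfkbib and Cyld were not called. Tnfaip3, which encodes the ubiquitin-editing inhibitor A20, stood at 87.6, 81.1 and 76.1 CPM in TNFdARE and 22.6, 25.7 and 25.5 CPM in WT (log2 fold change 1.73 ± 0.09, adjusted p = 0.000126), and its partners Tnip1 and Tnip3 rose by log2 1.24 ± 0.08 and 3.79 ± 0.35. The inhibitor gene Nfkbie went from 18.1 ± 3.43 CPM in WT to 88.3 ± 6.98 CPM in TNFdARE (log2 fold change 2.29 ± 0.14, adjusted p = 0.000276), and Nfkbia, the best-known inhibitor of NF-kB, rose by log2 0.71 ± 0.12. Of the transcription factor subunits, Relb and Nfkb2 of the noncanonical arm rose by log2 1.42 ± 0.10 and 1.22 ± 0.09 and Nfkb1 by 0.58 ± 0.07. Birc3, a survival factor bound to the receptor complex, rose by log2 1.10 ± 0.10, and the kinase gene Ikbke by 1.28 ± 0.14. Adding the muscle covariate ended the call of Nfkbia.

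In a list of mRNA-binding and decay factors, 5 of 15 tested members were called higher and 0 lower, with a median log2 fold change of 0.07. The list holds proteins that bind AU-rich elements and others, such as Regnase-1, that act on mRNA by other routes. Zc3h12a, which encodes the RNase Regnase-1, stood at 37.6, 39.4 and 37.2 CPM in TNFdARE and 23.2, 21.7 and 21.5 CPM in WT and rose by log2 0.78 ± 0.08 (adjusted p = 0.00105). Zfp36, which encodes tristetraprolin, the decay factor of Tnf mRNA, stood at 235, 144 and 148 CPM in TNFdARE and 116, 68.9 and 76.1 CPM in WT, and its groups did not overlap by a narrow margin (log2 fold change 1.01 ± 0.28, adjusted p = 0.0477). Its relative Zfp36l2 rose by log2 0.51 ± 0.09. Zfp36l2 was not called once the muscle covariate was added. There was no call for Zfp36 with RLE size factors or without the filter on low counts and, at 0.74 to 1.14, without TNFdARE replicate 1, 2 or 3 or WT replicate 2 or 3. The mRNA-binding and decay factor list had 2 higher and 0 lower with the muscle covariate and 2 to 3 higher without TNFdARE replicate 1, 2 or 3 or WT replicate 2 or 3.

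Over the whole tissue, 3713 of 15599 tested genes were called, 23.8%, of which 2037 were higher and 1676 lower in TNFdARE. With the muscle covariate the counts were 562 higher and 197 lower, so that 74% of calls were upward against 54.9% without it, and 720 of the genes were shared. Leaving out 1 library gave fewest calls without TNFdARE replicate 3 (1278 higher, 863 lower) and without WT replicate 3 (1265 and 952), and without WT replicate 1 there were 1099 lower. At least 2-fold changes were called in 613 genes (3.93%) upward and 643 (4.12%) downward, and the genotypes' CPM did not overlap in 6939 genes (44.5%). The upward changes reached much larger folds. Saa3, an acute phase protein made in inflamed tissue, stood at 439.6, 175 and 399.5 CPM in TNFdARE and 1.7, 0.604 and 0.473 CPM in WT (log2 fold change 8.51 ± 0.64, adjusted p = 0.00115); the pooled counts were 369 times higher, with a 95% counting interval of 271 to 516. Among genes averaging 1 or more in log2 CPM, the other largest increases were the chemokine genes Ccl2, Cxcl13, Cxcl5, Ccl7, Ccl17 and Cxcl1, the matrix protease gene Mmp3, the nitric oxide synthase gene Nos2, the arginase gene Arg1, the secretory gene Mucl1 and the scavenger receptor gene Marco. They ran from 4.31 ± 0.80 for Marco to 6.45 ± 0.38 for Ccl2. Genes at 0 counts in all WT libraries cannot be given a fold. Csf2, which encodes the growth factor GM-CSF, had 78 counts in TNFdARE and was at least 23.3-fold higher against a floor of 3 counts over the WT group. Ccl20, the ligand of the receptor CCR6, had 154 counts and was at least 46.1-fold higher on the same floor. Under the muscle covariate the calls of Marco, Ccl20 and Cxcl5 ended. No call was made for Marco without the filter on low counts or with all 12 libraries in 1 fit, Ccl20 without TNFdARE replicate 1 or 3 and Marco (4.17) without WT replicate 3.

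Under the same limit on level and without overlap of the genotypes, the largest falls were smaller, with -3.20 ± 0.72 for Coch, a matrix protein gene, at the far end, although its WT libraries ranged widely at 82.1, 21.3 and 29.8 CPM. Htra4, a serine protease gene, followed at 44.3, 85 and 57.4 CPM in TNFdARE and 286, 306 and 365 CPM in WT (log2 fold change -2.36 ± 0.25, adjusted p = 0.00233). The falls with the smallest adjusted p were tight in both groups. Pla1a, which encodes a phospholipase that makes lysophosphatidylserine, stood at 16, 16.6 and 16.4 CPM in TNFdARE and 74.3, 75.7 and 84.2 CPM in WT (log2 fold change -2.26 ± 0.08, adjusted p = 6.18e-05), a drop in every library with no overlap. Lims2, a focal adhesion gene, stood at 21.4 ± 1.07 CPM in TNFdARE and 48.7 ± 2.38 CPM in WT, Chst2, a carbohydrate sulfotransferase gene, at 19.9 ± 3.03 CPM in TNFdARE and 73.2 ± 7.45 CPM in WT, and Gpx3, the secreted glutathione peroxidase gene, at 639 ± 21.9 CPM in TNFdARE and 1462 ± 65.7 CPM in WT. Their log2 fold changes were -1.18 ± 0.08, -1.88 ± 0.13 and -1.19 ± 0.09. On the upward side the smallest adjusted p belonged to Tnf, the orphan receptor gene Gpr176 (44.3 ± 3.07 CPM in TNFdARE and 7.94 ± 0.237 CPM in WT), the dipeptidase gene Dpep2 (69.7 ± 5.5 CPM in TNFdARE and 12.3 ± 0.793 CPM in WT), Traf1 and Tlr2. Among other large falls were Doc2b (-2.30 ± 0.19), Sv2c (-2.29 ± 0.22), Paqr9 (-2.20 ± 0.41), Kcnc2 (-2.15 ± 0.18), and Aldh1a3, a retinoic acid synthesis gene (-2.18 ± 0.36). Coch and Aldh1a3 lost their calls with the muscle covariate. The call was lost for Coch without the filter on low counts or with limma-voom and, at -3.48 to -2.80, without TNFdARE replicate 1, 2 or 3 or WT replicate 3.

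**Figure D2:**
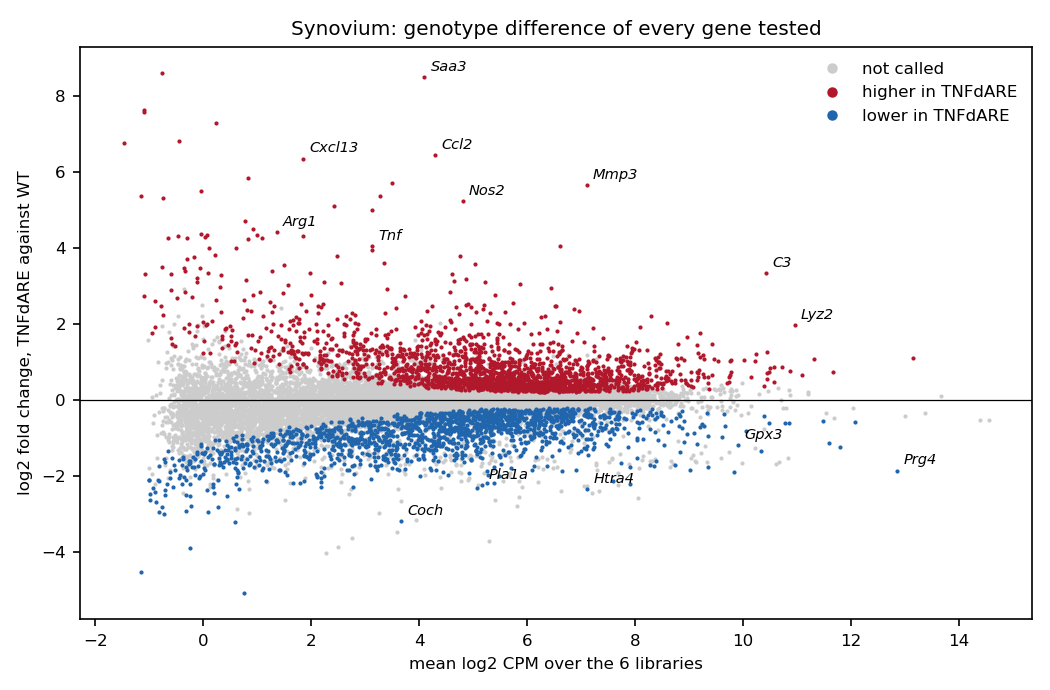
Each point is one of the 15599 genes tested in the synovium, with the mean log2 CPM over 6 libraries on the x axis and the log2 fold change of TNFdARE against WT on the y axis; red and blue mark genes called higher (2037) and lower (1676). Saa3 lies at 8.51, and abundant genes lie on both sides, with C3 at 3.35 and Prg4 at -1.87.

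The 2 chemokine ligand lists had the highest medians of the 59 lists. Among CXC and CX3C ligands 9 of 13 tested members were called higher and 1 lower, with a median log2 fold change of 2.54, and among CC ligands 10 of 16 tested members were called higher and 1 lower, with a median log2 fold change of 2.24. Cxcl1, Cxcl2, Cxcl3 and Cxcl5 encode the ligands of the neutrophil receptor CXCR2. Cxcl1 stood at 66.5, 40.5 and 51.8 CPM in TNFdARE and 3.12, 0.536 and 1.35 CPM in WT (log2 fold change 4.99 ± 0.52, adjusted p = 0.00278). Cxcl2 and Cxcl3 rose by log2 3.54 ± 0.49 and 4.26 ± 0.36, and Cxcl5 stood at 119, 36.2 and 111 CPM in TNFdARE and 0.993, 2.88 and 1.15 CPM in WT. Their receptor gene did not follow the ligands: Cxcr2 stood at 15.7, 46.3 and 30.6 CPM in TNFdARE and 25.9, 52.5 and 32.6 CPM in WT (log2 fold change -0.26 ± 0.45, adjusted p = 0.719), with replicate 2 highest in both genotypes. Ccl2, Ccl7, Ccl8 and Ccl12 encode the ligands of the monocyte receptor CCR2. Ccl2 stood at 206, 190.4 and 175 CPM in TNFdARE and 2.98, 0.805 and 2.77 CPM in WT (log2 fold change 6.45 ± 0.38, adjusted p = 0.00053), and Ccl7, Ccl8 and Ccl12 rose by log2 5.38 ± 0.49, 3.09 ± 0.31 and 2.58 ± 0.33. Here the receptor gene rose too, with Ccr2 at 292, 277 and 297 CPM in TNFdARE and 78, 82.4 and 71.1 CPM in WT (log2 fold change 1.90 ± 0.08, adjusted p = 6.47e-05).

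Ccl5, which draws T cells and monocytes, rose from 8.51 ± 0.664 CPM in WT to 74.1 ± 23.4 CPM in TNFdARE (log2 fold change 3.12 ± 0.24, adjusted p = 0.000696). The 2 membrane-anchored chemokines did as well. Cx3cl1, the ligand of CX3CR1, stood at 143, 136 and 108 CPM in TNFdARE and 23.6, 19.6 and 23.2 CPM in WT (log2 fold change 2.54 ± 0.13, adjusted p = 0.000126), and Cxcl16 at 171 ± 33.8 CPM in TNFdARE and 20.5 ± 3.14 CPM in WT (log2 fold change 3.06 ± 0.19, adjusted p = 0.000416). The receptor gene Cx3cr1, carried by monocytes and by the macrophages of the lining, stood at 132 ± 9.68 CPM in TNFdARE and 54.2 ± 8.29 CPM in WT (log2 fold change 1.29 ± 0.12, adjusted p = 0.000869). Cxcl13, which draws B cells and follicular T cells, stood at 30.1, 24.2 and 37.5 CPM in TNFdARE and 0.426, 0.0671 and 0.609 CPM in WT, the pooled counts being 83.8 times higher with a 95% counting interval of 51.4 to 147. Its receptor gene Cxcr5, which marks those lymphocytes, fell from 8.05 ± 3.33 CPM in WT to 1.83 ± 1.11 CPM in TNFdARE (log2 fold change -2.13 ± 0.52, adjusted p = 0.03). Ccl17, a ligand of the T cell receptor CCR4, stood at 33.6 ± 10.9 CPM in TNFdARE and 0.958 ± 0.794 CPM in WT (log2 fold change 5.12 ± 0.54, adjusted p = 0.00255). Cxcl12, the constitutive chemokine of stroma, stood at 1594 ± 191 CPM in TNFdARE and 1864 ± 165 CPM in WT (log2 fold change -0.23 ± 0.12, adjusted p = 0.218). In the receptor list 6 of 18 tested members were called higher and 4 lower, with a median log2 fold change of -0.29. The muscle covariate ended the call of Cxcr5. Further calls ended for Cxcr5 without the filter on low counts or with all 12 libraries in 1 fit and, at -2.10 to -1.82, without TNFdARE replicate 3 or WT replicate 2 or 3. The chemokine receptors list had 3 higher and 2 lower with all 12 libraries in 1 fit, 4 higher and 1 lower with the muscle covariate and 1 to 2 lower without TNFdARE replicate 1 or 3 or WT replicate 3.

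The neutrophil list held no called gene. Of 20 tested, 0 were called by edgeR in either direction, 1 with an unadjusted p under 0.05, 1 by DESeq2 and 1 by limma-voom, with a median log2 fold change of 0.27. S100a8, a subunit of the granulocyte protein calprotectin, stood at 289, 1172 and 544 CPM in TNFdARE and 287, 888 and 449 CPM in WT (log2 fold change 0.30 ± 0.63, adjusted p = 0.771). The spread was shared by the genotypes: the summed list stood at 1784, 7005 and 3306 CPM in TNFdARE and 1751, 5743 and 2857 CPM in WT, highest in replicate 2 of each. The marrow granule gene Mpo followed the same order, at 89.1, 409.9 and 222 CPM in TNFdARE and 77.1, 345 and 132 CPM in WT. Mpo is itself a member of the neutrophil list and of the erythroid and marrow list. The latter summed to 808, 1604 and 988 CPM in TNFdARE and 753, 1730 and 699 CPM in WT. It was also highest in replicate 2 of each, but in WT replicate 1 lay above replicate 3. The neutrophil list had 6 higher and 1 lower with the replicate block. Mpo (adjusted p = 0.0434) was called with the replicate block.

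**Figure D3:**
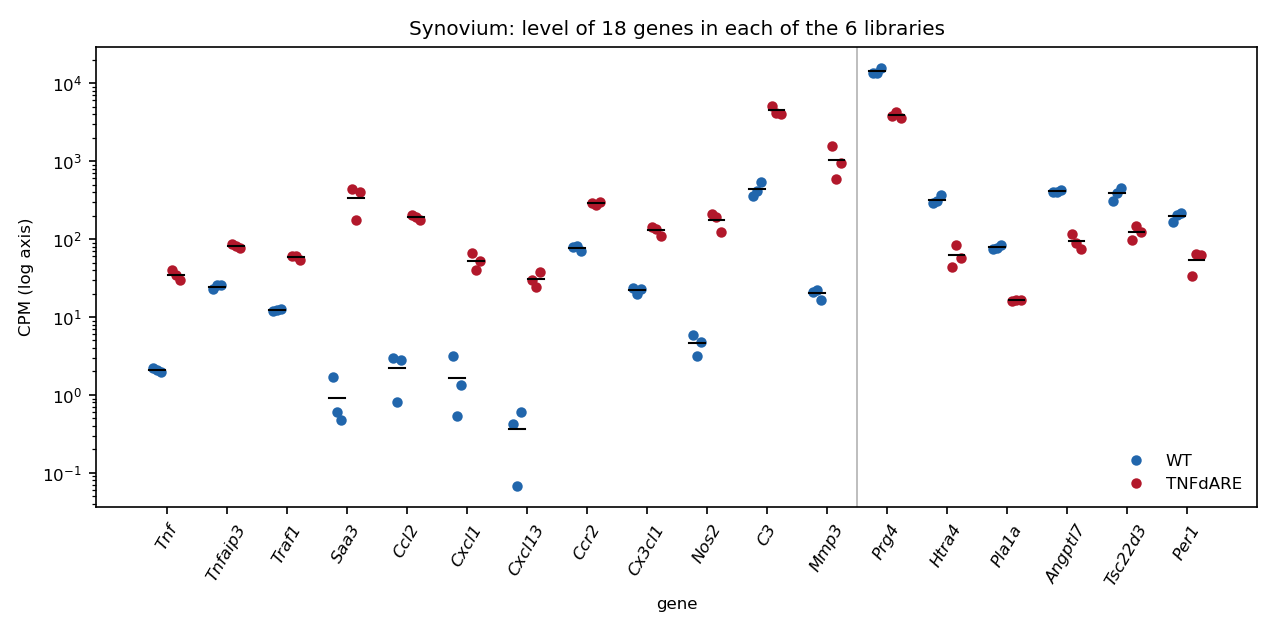
CPM on a log axis of 18 genes in each of the 6 synovium libraries, blue for WT and red for TNFdARE, with a bar at each mean; 12 genes that rose stand left of the grey line and 6 that fell stand right of it. No gene shown overlaps between the genotypes: Tnf, for example, lies between 29.9 and 40 CPM in TNFdARE and between 1.96 and 2.2 in WT.

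Macrophage genes rose. In the monocyte and macrophage list 14 of 20 tested members were called higher and 0 lower, with a median log2 fold change of 1.28, and in the list of inflammatory macrophage genes 15 of 18 tested members were called higher and 0 lower, with a median log2 fold change of 1.92. Csf1r, the growth factor receptor that macrophages depend on, stood at 881, 848 and 879 CPM in TNFdARE and 375, 408 and 404 CPM in WT (log2 fold change 1.14 ± 0.08, adjusted p = 0.000406). Adgre1, which encodes the macrophage antigen F4/80, stood at 224 ± 39.6 CPM in TNFdARE and 66.7 ± 4.13 CPM in WT, and Cd14, the co-receptor for lipopolysaccharide, at 108 ± 17.7 CPM in TNFdARE and 21.8 ± 5.09 CPM in WT. The scavenger receptor gene Msr1 rose by log2 2.75 ± 0.18 and Fcgr3 by 1.46 ± 0.15. Nos2, the inducible nitric oxide synthase, stood at 209, 192 and 123 CPM in TNFdARE and 5.96, 3.15 and 4.73 CPM in WT (log2 fold change 5.24 ± 0.32, adjusted p = 0.000545), with all TNFdARE libraries above all WT libraries. The arginine transporter gene Slc7a2 stood at 682 ± 90.5 CPM in TNFdARE and 147 ± 9.9 CPM in WT (log2 fold change 2.21 ± 0.12, adjusted p = 0.000157), and Arg1, which competes for arginine, at 19.4, 5.28 and 11.2 CPM in TNFdARE and 0.426, 0.268 and 0.947 CPM in WT (log2 fold change 4.43 ± 0.66, adjusted p = 0.00604). Genes of the fungal and damage sensors Mincle and its relatives rose: Clec4e by 3.19 ± 0.20, Clec4d by 3.32 ± 0.35 and Clec5a by 2.08 ± 0.10. Acod1, which makes itaconate, rose by log2 2.53 ± 0.25 (adjusted p = 0.00106). No call remained for Acod1 with all 12 libraries in 1 fit.

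The genes of resident synovial macrophages split. In that list 6 of 17 tested members were called higher and 3 lower, with a median log2 fold change of 0.10. Trem2, a lipid receptor gene of tissue macrophages, stood at 86.9, 65.3 and 74 CPM in TNFdARE and 26.2, 22.7 and 26.6 CPM in WT (log2 fold change 1.58 ± 0.12, adjusted p = 0.000509), and the mannose receptor gene Mrc1 rose by log2 0.72 ± 0.12. Cd163, the hemoglobin scavenger receptor, stood at 47.3 ± 2.47 CPM in TNFdARE and 51.9 ± 4.27 CPM in WT (log2 fold change -0.13 ± 0.09, adjusted p = 0.295). Timd4, a marker of long-lived resident macrophages, stood at 1.37, 5.1 and 2.02 CPM in TNFdARE and 6.31, 6.97 and 6.76 CPM in WT (log2 fold change -1.23 ± 0.45, adjusted p = 0.09), and Vsig4, the complement receptor of lining macrophages, fell, with a log2 fold change of -0.46 ± 0.12. Once the muscle covariate was added, Mrc1 and Vsig4 were no longer called. Calls also ended for Trem2 and Vsig4 with all 12 libraries in 1 fit and Vsig4 (-0.48 to -0.38) without TNFdARE replicate 2 or 3 or WT replicate 1 or 3. The resident synovial macrophage list had 7 higher and 5 lower by DESeq2, 4 higher and 0 lower with the muscle covariate and 0 to 1 lower without TNFdARE replicate 3 or WT replicate 1 or 3. Timd4 (adjusted p = 0.0271) was called with the replicate block.

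Genes of receptors for antibody and complement and of the phagocyte oxidase rose, as 15 of 18 tested members were called higher and 0 lower, with a median log2 fold change of 1.12. Fcgr2b, the inhibitory Fc receptor, stood at 314, 246 and 285 CPM in TNFdARE and 48.5, 54 and 63.8 CPM in WT (log2 fold change 2.35 ± 0.13, adjusted p = 0.000216). The anaphylatoxin receptor genes C3ar1 and C5ar1 rose by log2 2.21 ± 0.20 and 1.32 ± 0.13. Itgax, the integrin chain CD11c of dendritic cells and macrophages, stood at 71.5, 73.4 and 65.2 CPM in TNFdARE and 20.9, 20.9 and 21.8 CPM in WT (log2 fold change 1.73 ± 0.08, adjusted p = 8.52e-05), and Itgam, its CD11b counterpart, at 433 ± 35.2 CPM in TNFdARE and 173 ± 45.6 CPM in WT (log2 fold change 1.32 ± 0.19, adjusted p = 0.00455). Among complement components 9 of 19 tested members were called higher and 4 lower, with a median log2 fold change of 0.94. C3, the central component, stood at 5168, 4191 and 4047 CPM in TNFdARE and 354, 415 and 547 CPM in WT (log2 fold change 3.35 ± 0.20, adjusted p = 0.000216), with every TNFdARE library far above every WT library. The classical pathway genes C1qa, C1qb and C1qc rose by log2 1.37 ± 0.12, 1.42 ± 0.14 and 1.24 ± 0.10, the proteases C1s1 and C1ra by 1.91 ± 0.18 and 1.53 ± 0.15, and C2 by 0.94 ± 0.18. Some regulators of the cascade fell and others were not called. Cd55, the decay-accelerating factor, fell, with a log2 fold change of -0.69 ± 0.13 and Clu, an extracellular chaperone and complement inhibitor, by -1.11 ± 0.15. Adding the muscle covariate ended the calls of Itgam, Cd55 and Clu. There was no call for Clu with all 12 libraries in 1 fit. The Fc/complement receptors, oxidase list had 7 higher and 0 lower with all 12 libraries in 1 fit and 6 higher and 0 lower with the muscle covariate. The complement list had 7 higher and 0 lower with the muscle covariate.

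Sensors of microbes and damage rose, and 15 of 20 tested members were called higher and 0 lower, with a median log2 fold change of 0.76. Tlr2, the receptor for bacterial lipoproteins, stood at 279.7, 225 and 226 CPM in TNFdARE and 28, 34.7 and 31.4 CPM in WT (log2 fold change 2.96 ± 0.12, adjusted p = 6.47e-05), a shift well beyond the spread. Tlr4 and Tlr7 rose by log2 0.55 ± 0.11 and 1.07 ± 0.13. The inflammasome genes rose from sensor to effector: Nlrp3 by 1.01 ± 0.14, the adaptor gene Pycard by 1.17 ± 0.13, the proteases Casp1 and Casp4 by 1.08 ± 0.11 and 1.59 ± 0.12, and the pore-forming Gsdmd by 0.91 ± 0.11. Their cytokine products differed in level. Il1b stood at 49.2, 48.5 and 72.2 CPM in TNFdARE and 27, 18.6 and 18 CPM in WT (log2 fold change 1.42 ± 0.22, adjusted p = 0.007), and Il18 at 8.66 ± 0.593 CPM in TNFdARE and 6.19 ± 1.24 CPM in WT (log2 fold change 0.48 ± 0.19, adjusted p = 0.0986). In the interleukin-1 family 9 of 16 tested members were called higher and 0 lower, with a median log2 fold change of 0.70: the receptor antagonist gene Il1rn stood at 41.9, 32.1 and 40.1 CPM in TNFdARE and 7.94, 13.9 and 11.2 CPM in WT (log2 fold change 1.78 ± 0.21, adjusted p = 0.00222), Il33 rose by log2 0.89 ± 0.18 and its receptor gene Il1rl1 by 1.41 ± 0.11. Nlrp3, Il1b and Il33 were not called once the muscle covariate was added. No call was made for Tlr4, Nlrp3, Il1b and Il33 with all 12 libraries in 1 fit. The Toll-like receptors, inflammasome list had 8 higher and 0 lower with all 12 libraries in 1 fit or with the muscle covariate. The IL-1 family list had 5 higher and 0 lower with all 12 libraries in 1 fit and 4 higher and 0 lower with the muscle covariate.

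Acute phase and antimicrobial genes held Saa3, named above, and 11 of 20 tested members were called higher and 0 lower, with a median log2 fold change of 1.23. The near-identical copies Saa1 and Saa2 rose by log2 4.71 ± 0.59 and 4.31 ± 0.75 from 0.294 and 0.117 CPM in WT, and reads may be split between them. Lbp, the lipopolysaccharide-binding protein gene, stood at 675, 577 and 586 CPM in TNFdARE and 304, 288 and 384 CPM in WT (log2 fold change 0.91 ± 0.13, adjusted p = 0.00383). Hp, the hemoglobin scavenger haptoglobin, stood at 889 ± 55.8 CPM in TNFdARE and 281 ± 49.4 CPM in WT (log2 fold change 1.66 ± 0.14, adjusted p = 0.000642). Lyz2, the lysozyme of myeloid cells, went from 1015 ± 170.4 CPM in WT to 3972 ± 678 CPM in TNFdARE (log2 fold change 1.97 ± 0.18, adjusted p = 0.000787), and its close paralog Lyz1 from 24.8 ± 6.87 CPM in WT to 411 ± 149.5 CPM in TNFdARE (log2 fold change 4.05 ± 0.36, adjusted p = 0.00163). Lyz1 is named for Paneth cells of the gut, and the 2 paralogs are so alike that counting can assign reads of one to the other, so the Lyz1 level is uncertain. The gut epithelial markers Vil1, Fabp6 and Defa24 were at most 1.29 CPM in any synovium library. The call was lost for Hp with all 12 libraries in 1 fit.

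T cell genes were called lower more often than higher. In that list 2 of 21 tested members were called higher and 5 lower, with a median log2 fold change of -0.57. Cd4, the co-receptor of helper T cells, rose from 22.8 ± 2.95 CPM in WT to 41.4 ± 4.06 CPM in TNFdARE (log2 fold change 0.86 ± 0.12, adjusted p = 0.00384), while Cd3e, a subunit of the T cell receptor complex, stood at 1.31, 0.911 and 1.59 CPM in TNFdARE and 2.13, 1.94 and 2.43 CPM in WT (log2 fold change -0.77 ± 0.30, adjusted p = 0.101). Cd8a and Cd8b1, the co-receptor of cytotoxic T cells, fell, with a log2 fold change of -1.54 ± 0.29 and -2.22 ± 0.46 from 2.41 and 1.56 CPM. Foxp3, which defines regulatory T cells, stood at 2.87, 2.67 and 1.71 CPM in TNFdARE and 0.213, 0.872 and 0.879 CPM in WT (log2 fold change 1.86 ± 0.48, adjusted p = 0.031), or 46, 44 and 28 counts in TNFdARE and 3, 13 and 13 in WT. In the regulatory T cell list 5 of 17 tested members were called higher and 1 lower, with a median log2 fold change of 0.70. Il1rl1, already named, was the member with the smallest adjusted p, and it is also a gene of mast cells and other cells. Under the muscle covariate the calls of Cd4, Cd8a, Cd8b1 and Foxp3 ended. Further calls ended for Cd4 with all 12 libraries in 1 fit and Foxp3 (1.72 to 2.13) without TNFdARE replicate 1 or 2 or WT replicate 2 or 3. The T cell list had 0 higher and 0 lower with the muscle covariate and 3 lower without TNFdARE replicate 1 or WT replicate 2 or 3. The regulatory T cell list had 1 higher and 0 lower with the muscle covariate and 1 to 3 higher without TNFdARE replicate 1, 2 or 3 or WT replicate 2 or 3.

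Ligands of T cell co-receptors rose on the side of the antigen-presenting cell. Of 16 co-stimulation and co-inhibition genes, 8 were called higher and 2 lower, with a median of 0.73. Cd80 stood at 17.2, 11.2 and 12.7 CPM in TNFdARE and 4.19, 2.55 and 4.53 CPM in WT (log2 fold change 1.87 ± 0.26, adjusted p = 0.00361), and Cd86, the other ligand of CD28, rose by log2 0.88 ± 0.12. Icosl and Cd276 rose by log2 1.07 ± 0.14 and 0.87 ± 0.08, Cd274, which encodes PD-L1, by 1.09 ± 0.14, and Havcr2, the checkpoint receptor TIM-3 that myeloid cells also carry, by 2.10 ± 0.15. The 2 called lower, Cd28 and Btla, are carried by lymphocytes. The log2 fold change was above 0 in 13 of the 16, so most of the 6 members not called, lymphocyte receptors among them, did not share that direction. Genes of antigen presentation by MHC class II rose as well: H2-Ab1 stood at 406, 404 and 403 CPM in TNFdARE and 152, 143 and 187 CPM in WT (log2 fold change 1.33 ± 0.11, adjusted p = 0.000598), H2-DMa rose by log2 1.34 ± 0.14 and the invariant chain gene Cd74 by 1.07 ± 0.15. The interferon-gamma and MHC class II list had 12 of 22 called higher and 2 lower. Cd86 and Cd74 lost their calls with the muscle covariate. No call remained for Cd274, H2-Ab1 and Cd74 with all 12 libraries in 1 fit. The co-stimulation list had 7 higher and 0 lower with library size as scaling, 5 higher and 0 lower with the muscle covariate and 0 lower without TNFdARE replicate 3 or WT replicate 3. The interferon-gamma, MHC class II list had 2 higher and 0 lower with all 12 libraries in 1 fit and 7 higher and 1 lower with the muscle covariate.

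Genes of interferon-induced GTPases, the guanylate-binding proteins among them, did not move as one. Gbp5 rose by log2 1.61 ± 0.11 and Gbp2 by 1.00 ± 0.13, and Gbp3 and Gbp7 were called higher too. Gbp4 fell, with a log2 fold change of -0.65 ± 0.11. Iigp1, a GTPase gene that is not of the guanylate-binding proteins, fell as well (-0.73 ± 0.13). More type I interferon genes were called lower than higher, as 1 of 20 tested members was called higher and 6 lower, with a median log2 fold change of -0.44. Ifit2, an RNA sensor of the interferon response, stood at 16.6, 18.5 and 17.9 CPM in TNFdARE and 26.5, 24.6 and 25.6 CPM in WT (log2 fold change -0.53 ± 0.09, adjusted p = 0.00718). Oasl1 fell, with a log2 fold change of -1.14 ± 0.27, and Isg15, another target, stood at 5.16 ± 2.02 CPM in TNFdARE and 5.98 ± 0.549 CPM in WT (log2 fold change -0.21 ± 0.28, adjusted p = 0.621). The muscle covariate ended the calls of Gbp4 and Ifit2. Calls also ended for Gbp2, Gbp4, Iigp1 and Ifit2 with all 12 libraries in 1 fit and Oasl1 (-1.20 to -1.03) without TNFdARE replicate 2 or WT replicate 2 or 3. The type I interferon list had 0 higher and 1 lower with all 12 libraries in 1 fit and 1 to 3 lower without TNFdARE replicate 1 or 2 or WT replicate 1, 2 or 3.

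Called genes of cytotoxic and natural killer cells fell, with 1 exception. In that list 1 of 11 tested members was called higher and 4 lower, with a median log2 fold change of -1.08, and the 1 that rose was Ccl5, which macrophages and fibroblasts make too. Tbx21, the transcription factor T-bet, stood at 0.625, 0.668 and 0.919 CPM in TNFdARE and 2.62, 2.21 and 3.18 CPM in WT (log2 fold change -1.85 ± 0.30, adjusted p = 0.006), low in both groups but without overlap. B cell genes had a median log2 fold change of -0.74, and 2 of 15 were called lower and 0 higher. Ms4a1, which encodes CD20, stood at 5.5, 16.2 and 15.3 CPM in TNFdARE and 20.6, 31.8 and 42 CPM in WT (log2 fold change -1.35 ± 0.46, adjusted p = 0.0866), and Cd79a, of the B cell receptor, at 12.7, 23.9 and 23.6 CPM in TNFdARE and 28, 38.9 and 56.9 CPM in WT (log2 fold change -1.04 ± 0.34, adjusted p = 0.0796). In both genes each TNFdARE replicate lay below its WT counterpart. Plasma cell genes gave 1 call of 15, and Jchain, the joining chain of secreted antibody, stood at 82.2 ± 23 CPM in TNFdARE and 100.0 ± 32.4 CPM in WT (log2 fold change -0.28 ± 0.32, adjusted p = 0.557). Once the muscle covariate was added, Tbx21 was no longer called. The cytotoxic and NK cell list had 1 higher and 2 lower with all 12 libraries in 1 fit, 1 higher and 0 lower with the muscle covariate and 1 to 2 lower without TNFdARE replicate 1 or 3 or WT replicate 1, 2 or 3. The B cell list had 0 higher and 9 lower by DESeq2, 0 higher and 12 lower with the replicate block, 0 higher and 0 lower with all 12 libraries in 1 fit or with the muscle covariate, 0 lower without WT replicate 3 and 4 lower without WT replicate 1. The plasma cell list had 2 higher and 2 lower by DESeq2. Ms4a1 (adjusted p = 0.00215) and Cd79a (adjusted p = 0.00175) were called with the replicate block.

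Genes of the lining fibroblasts fell. Of 14 lining genes tested, 9 were called lower and 1 higher, with a median log2 fold change of -0.86. Prg4 encodes lubricin, the lubricant of the joint surface and the defining product of the lining. It stood at 3817, 4269 and 3602 CPM in TNFdARE and 13679, 13310.0 and 15685 CPM in WT, and all TNFdARE libraries lay far below all WT libraries (log2 fold change -1.87 ± 0.13, adjusted p = 0.000419). Htra4, named above, Tspan15, a membrane organiser gene, and Clic5, a chloride channel gene of lining cells, fell as well; Tspan15 stood at 27 ± 6.46 CPM in TNFdARE and 77.5 ± 4.3 CPM in WT (log2 fold change -1.52 ± 0.16, adjusted p = 0.0015) and Clic5 at 113, 147 and 77.5 CPM in TNFdARE and 625, 462 and 498 CPM in WT (log2 fold change -2.23 ± 0.25, adjusted p = 0.00253). Hbegf, a growth factor gene, fell, with a log2 fold change of -1.76 ± 0.19, the laminin receptor gene Itga6 by -0.75 ± 0.07 and the guidance gene Sema5a by -0.97 ± 0.12. Hyaluronan, the other lubricant, is made by Has1 and Has2, which stood at 31.2 ± 4.72 CPM in TNFdARE and 44 ± 9.66 CPM in WT (log2 fold change -0.50 ± 0.18, adjusted p = 0.0844) and 16.1 ± 8.05 CPM in TNFdARE and 11 ± 6.65 CPM in WT (log2 fold change 0.56 ± 0.53, adjusted p = 0.487). Its receptor Cd44 rose from 267 ± 1.52 CPM in WT to 742 ± 123 CPM in TNFdARE (log2 fold change 1.47 ± 0.13, adjusted p = 0.000642), and Tnfaip6, a TNF-induced protein that crosslinks hyaluronan, from 7.88 ± 1.6 CPM in WT to 39.7 ± 4.97 CPM in TNFdARE (log2 fold change 2.33 ± 0.17, adjusted p = 0.000453). Adding the muscle covariate ended the calls of Clic5 and Hbegf. The lining fibroblast list had 0 higher and 5 lower with the muscle covariate.

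More genes of the deeper, sublining fibroblasts were called higher than lower. In the sublining list 5 of 18 tested members were called higher and 2, Smoc2 and Cxcl14, lower, with a median log2 fold change of 0.22. Over all tested genes 13.1% were called higher and 10.7% lower, so the lower count was near the share over all. Pdpn, podoplanin, a marker of activated fibroblasts and of lymphatic vessels, stood at 146, 106 and 124 CPM in TNFdARE and 31.1, 27.4 and 33.6 CPM in WT (log2 fold change 2.03 ± 0.13, adjusted p = 0.000374). Thy1, the sublining surface marker, stood at 102 ± 29.1 CPM in TNFdARE and 42 ± 3.91 CPM in WT (log2 fold change 1.28 ± 0.22, adjusted p = 0.00989), and Dpt, a small matrix protein gene, at 484 ± 57.2 CPM in TNFdARE and 244 ± 26.1 CPM in WT (log2 fold change 0.99 ± 0.12, adjusted p = 0.00216). Activated fibroblast genes gave 10 of 20 tested members called higher and 2 lower, with a median of 0.89. Plau, the protease urokinase, and its receptor gene Plaur rose by log2 1.46 ± 0.11 and 1.30 ± 0.14, the collagen crosslinker gene Loxl2 by 0.92 ± 0.12, and Il34, the second ligand of CSF1R, by 1.04 ± 0.15. Postn, periostin, and Lrrc15, a marker of myofibroblasts, rose by log2 1.75 ± 0.31 and 2.49 ± 0.34, while Acta2, smooth muscle actin, fell, with a log2 fold change of -0.66 ± 0.15. The other member called lower was Fap, which encodes fibroblast activation protein. Thy1, Postn and Lrrc15 were not called once the muscle covariate was added. There was no call for Acta2 (-0.61) without WT replicate 3. The sublining fibroblast list had 2 higher and 0 lower with the muscle covariate and 0 lower without TNFdARE replicate 1 or 2 or WT replicate 2 or 3. The activated fibroblast list had 6 higher and 2 lower with the muscle covariate and 0 lower without WT replicate 3.

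Genes of the matrix were called higher more often than lower. Those of the enzymes that cut it, with their inhibitors, had calls in both directions. Collagen and matrix genes gave 10 of 20 tested members called higher and 1, Comp, lower, with a median of 0.47. Over all tested genes 13.1% were called higher and 10.7% lower. The collagen VI chains Col6a1, Col6a2 and Col6a3 rose by log2 0.87 ± 0.14, 0.86 ± 0.13 and 1.26 ± 0.15, and Col3a1, of loose and healing tissue, by 1.10 ± 0.23; Col1a1, which bone and fibroblasts share, stood at 18311 ± 632 CPM in TNFdARE and 26469 ± 9865 CPM in WT (log2 fold change -0.53 ± 0.28, adjusted p = 0.198). Among metalloproteinases, ADAMTS enzymes and their inhibitors 11 of 25 tested members were called higher and 4 lower, with a median log2 fold change of 0.28. Mmp3, stromelysin-1, stood at 1539.6, 586 and 935 CPM in TNFdARE and 21.1, 22.5 and 16.7 CPM in WT (log2 fold change 5.67 ± 0.43, adjusted p = 0.000998), with the lowest TNFdARE library far above the highest WT library. Mmp10, its close relative stromelysin-2, rose from 1 count in WT to 62 counts, a ratio of 55.6 with a 95% counting interval of 9.62 to 2230. Mmp19 stood at 105 ± 28.8 CPM in TNFdARE and 26 ± 2.52 CPM in WT (log2 fold change 2.01 ± 0.21, adjusted p = 0.00184), Adamts4, an aggrecan-cutting enzyme, rose by log2 1.71 ± 0.24, and Mmp13, the collagenase of cartilage and bone, went from 431 ± 144 CPM in WT to 1203 ± 386 CPM in TNFdARE (log2 fold change 1.48 ± 0.36, adjusted p = 0.0332). Mmp9, the gelatinase of neutrophils and osteoclasts, stood at 885 ± 258 CPM in TNFdARE and 1175 ± 214 CPM in WT (log2 fold change -0.41 ± 0.24, adjusted p = 0.267). The inhibitors split: Timp1, which inflammation induces, rose by log2 2.38 ± 0.34, and Timp3, which binds the matrix and inhibits the TNF-shedding enzyme, fell from 739 ± 94.5 CPM in WT to 403 ± 32.6 CPM in TNFdARE (log2 fold change -0.87 ± 0.12, adjusted p = 0.00292). Of the lysosomal cathepsins, Ctss of antigen-presenting cells rose by log2 2.04 ± 0.13 and Ctsc and Ctsz by 1.18 ± 0.11 and 0.90 ± 0.09. Under the muscle covariate the calls of Col3a1, Mmp13 and Timp1 ended. No call was made for Mmp13 without the filter on low counts or with replicate number as a block and, at 1.31 to 1.64, without TNFdARE replicate 1 or 3 or WT replicate 2 or 3 and Col3a1 (0.98) without TNFdARE replicate 3. The collagens and matrix list had 3 higher and 0 lower with the muscle covariate, 6 higher without TNFdARE replicate 1 or 3 or WT replicate 3 and 3 lower without WT replicate 3. The MMP, ADAMTS, TIMP list had 5 higher and 2 lower with the muscle covariate.

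Osteoblast genes fell. In the osteoblast list 0 of 16 tested members were called higher and 11 lower, with a median log2 fold change of -0.83. Bglap, Bglap2, Mepe, Spp1 and Col1a1 were not called. The summed level was 21130, 22920 and 22020 CPM in TNFdARE and 33880, 41380 and 20240 CPM in WT. WT replicate 3 thus lay below every TNFdARE library. Pth1r, the parathyroid hormone receptor, stood at 91.2, 92.2 and 94.7 CPM in TNFdARE and 155, 186 and 141 CPM in WT (log2 fold change -0.80 ± 0.10, adjusted p = 0.00274), and Runx2, the master transcription factor of osteoblasts, at 83.9 ± 8.18 CPM in TNFdARE and 129 ± 15.7 CPM in WT (log2 fold change -0.62 ± 0.11, adjusted p = 0.00851). The receptor and the decoy of RANK ligand moved in opposite directions. Tnfrsf11a, which encodes RANK on osteoclast precursors, stood at 45.2, 44.6 and 49.5 CPM in TNFdARE and 22.4, 23.7 and 19.7 CPM in WT (log2 fold change 1.08 ± 0.10, adjusted p = 0.000746), and Tnfrsf11b, the soluble decoy osteoprotegerin, at 31.9, 45.2 and 30.4 CPM in TNFdARE and 96.8, 73 and 80.9 CPM in WT (log2 fold change -1.22 ± 0.18, adjusted p = 0.00512). Their ligand gene Tnfsf11 stood at 10.9, 8.02 and 16 CPM in TNFdARE and 13.5, 11.9 and 15.2 CPM in WT (log2 fold change -0.22 ± 0.25, adjusted p = 0.565), with overlapping groups. Acp5, an enzyme of mature osteoclasts, stood at 599 ± 128 CPM in TNFdARE and 719 ± 85.7 CPM in WT (log2 fold change -0.26 ± 0.17, adjusted p = 0.297). In the osteoclast list 5 of 18 tested members were called higher and 1 lower, with a median log2 fold change of 0.14. Tnfrsf11b lost its call with the muscle covariate. The call was lost for Runx2 with all 12 libraries in 1 fit. The osteoblast list had 0 higher and 6 lower without the filter on low counts, 0 higher and 2 lower with the muscle covariate and 2 to 6 lower without TNFdARE replicate 1 or 3 or WT replicate 1 or 2. The osteoclast and RANK ligand list had 1 higher and 1 lower with all 12 libraries in 1 fit or with the muscle covariate and 1 to 3 higher without TNFdARE replicate 1, 2 or 3 or WT replicate 1 or 3.

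Genes of cartilage fell too, and more members of the Wnt and BMP list were called lower than higher. The cartilage list had 0 of 19 tested members called higher and 9 lower, with a median of -1.22, and its summed level was 4388, 6184 and 5058 CPM in TNFdARE and 9723, 11530 and 8474 CPM in WT. Chad, chondroadherin of the cartilage matrix, stood at 307, 686 and 462 CPM in TNFdARE and 1998, 1709 and 1690.4 CPM in WT (log2 fold change -1.89 ± 0.29, adjusted p = 0.00659). Cilp2 and Comp fell, with a log2 fold change of -1.22 ± 0.16 and -0.62 ± 0.12, while Col2a1 and Acan, the main collagen and proteoglycan of cartilage, stood at 347 ± 191 CPM in TNFdARE and 736 ± 486 CPM in WT (log2 fold change -1.08 ± 0.62, adjusted p = 0.256) and 267 ± 79.2 CPM in TNFdARE and 464 ± 97.2 CPM in WT (log2 fold change -0.80 ± 0.25, adjusted p = 0.0664). Matn1, a marker of hyaline cartilage, was not abundant enough to be tested. In the Wnt and BMP list 1 of 23 tested members was called higher and 12 lower, with a median log2 fold change of -0.58. The members called lower hold inhibitors of these pathways, Dkk2, Sost, Frzb, Wif1, Nog and Chrdl1, beside ligands such as Wnt5a, Bmp4 and Bmp7. The count therefore gives no direction of signalling. Bmp4 stood at 18.4, 18.4 and 16.9 CPM in TNFdARE and 31.9, 32 and 31.4 CPM in WT (log2 fold change -0.83 ± 0.08, adjusted p = 0.00104), and the Wnt antagonist gene Wif1 fell, with a log2 fold change of -0.81 ± 0.16. In the tendon list 5 of 12 tested members were called higher and 1 lower, with a median log2 fold change of 0.47. Tnmd, tenomodulin, rose by log2 0.94 ± 0.16 and Kera, keratocan, by 1.45 ± 0.25, whereas Angptl7, a secreted angiopoietin-like factor, stood at 117, 87.8 and 74.4 CPM in TNFdARE and 407, 406 and 423 CPM in WT (log2 fold change -2.15 ± 0.16, adjusted p = 0.000527). The muscle covariate ended the calls of Chad, Cilp2, Comp and Wif1. The cartilage list had 0 higher and 14 lower by DESeq2, 0 higher and 16 lower with the replicate block, 0 higher and 2 lower with the muscle covariate and 3 to 5 lower without TNFdARE replicate 1 or 3 or WT replicate 1 or 2. The Wnt and BMP list had 4 higher and 12 lower by DESeq2, 3 higher and 12 lower with the replicate block, 3 higher and 10 lower with all 12 libraries in 1 fit, 0 higher and 2 lower with the muscle covariate, 4 higher without TNFdARE replicate 2 and 5 to 6 lower without WT replicate 2 or 3. The tendon list had 2 higher and 2 lower with the muscle covariate and 3 higher without TNFdARE replicate 1 or WT replicate 2 or 3. Col2a1 (adjusted p = 0.0282) was called with the replicate block.

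Adipocyte genes fell almost throughout the list. Of 20 tested, 17 were called lower and 0 higher, with a median of -1.19, and the summed level was 5209, 6861 and 4046 CPM in TNFdARE and 11370, 10280 and 12990 CPM in WT. Pparg, the master transcription factor of fat cells, stood at 14.5, 21.1 and 14.8 CPM in TNFdARE and 37, 40.7 and 42.4 CPM in WT (log2 fold change -1.25 ± 0.16, adjusted p = 0.00236). Fabp4, a fatty acid carrier, stood at 381 ± 79.1 CPM in TNFdARE and 861 ± 182 CPM in WT (log2 fold change -1.17 ± 0.20, adjusted p = 0.00767), Lep, leptin, at 8.34 ± 2.94 CPM in TNFdARE and 33.5 ± 9.47 CPM in WT (log2 fold change -2.0 ± 0.33, adjusted p = 0.00866) and Pnpla2, the lipase that starts fat breakdown, fell, with a log2 fold change of -1.16 ± 0.15. Once the muscle covariate was added, Fabp4, Lep and Pnpla2 were no longer called. The adipocyte list had 0 higher and 11 lower without the filter on low counts, 0 higher and 1 lower with the muscle covariate and 9 to 11 lower without TNFdARE replicate 1 or WT replicate 3. Its median log2 fold change with the muscle covariate was -1.089.

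Skeletal muscle genes were lower by the lowest median of the 59 lists, -1.65, while 1 of 23 was called lower and the libraries of a genotype differed widely. Acta1, skeletal actin, stood at 1719.8, 826 and 403 CPM in TNFdARE and 5085, 2026 and 2412 CPM in WT (log2 fold change -1.69 ± 0.63, adjusted p = 0.109), and Myh4, a fast myosin, at 399, 565 and 170.1 CPM in TNFdARE and 1113, 1678 and 1085 CPM in WT (log2 fold change -1.77 ± 0.46, adjusted p = 0.0429). Genes of fat oxidation, shared by muscle and fat, fell in 7 of 20, led by Pdk4, a brake on glucose oxidation, at 36.2, 28.9 and 20.5 CPM in TNFdARE and 116, 77.9 and 103 CPM in WT (log2 fold change -1.80 ± 0.24, adjusted p = 0.00477). Genes of glycolysis rose in 8 of 24 and fell in 0: the glucose transporter gene Slc2a1 rose by log2 0.99 ± 0.10, Eno1 by 1.15 ± 0.10, Pfkp by 0.84 ± 0.08 and Pgam1 by 1.03 ± 0.11, while Ldha stood at 562 ± 13.9 CPM in TNFdARE and 494 ± 52.9 CPM in WT (log2 fold change 0.19 ± 0.10, adjusted p = 0.197). Hif1a, the oxygen-sensing transcription factor, rose by log2 1.06 ± 0.17. Adding the muscle covariate ended the calls of Myh4 and Hif1a. Myh4 and Acta1 are among the genes that make up this covariate, so for them that fit is no separate check. Further calls ended for Myh4 without the filter on low counts and, at -1.88 to -1.54, without TNFdARE replicate 1 or WT replicate 1, 2 or 3. The skeletal muscle list had 0 higher and 13 lower by DESeq2, 0 higher and 22 lower with the replicate block, 0 higher and 18 lower with all 12 libraries in 1 fit and 3 to 11 lower without TNFdARE replicate 1 or 3. The fat oxidation list had 0 higher and 1 lower with the muscle covariate and 2 to 4 lower without TNFdARE replicate 3 or WT replicate 1 or 3. The glycolysis, hypoxia list had 9 higher and 4 lower by DESeq2, 11 higher and 4 lower with the replicate block, 6 higher and 4 lower with all 12 libraries in 1 fit, 5 higher and 0 lower with the muscle covariate and 2 lower without TNFdARE replicate 1. Acta1 (adjusted p = 0.00516) was called with the replicate block.

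Vessel genes changed in both directions. The endothelial list had 4 of 20 tested members called higher and 7 lower, with a median of -0.20. Icam1, the leukocyte adhesion molecule, stood at 226, 240.5 and 181 CPM in TNFdARE and 34.7, 37.2 and 45.5 CPM in WT (log2 fold change 2.46 ± 0.15, adjusted p = 0.000246), and Sele, E-selectin of activated endothelium, rose by log2 1.25 ± 0.19. Vcam1, the third TNF-induced adhesion molecule, stood at 223, 246 and 257 CPM in TNFdARE and 149.5, 269.6 and 246 CPM in WT (log2 fold change 0.13 ± 0.21, adjusted p = 0.711), where WT replicate 1 was low and the groups overlapped. The endothelial receptor genes Kdr and Tek fell, with a log2 fold change of -0.35 ± 0.06 and -0.52 ± 0.07, and Pecam1, a general marker, stood at 209 ± 29.5 CPM in TNFdARE and 243 ± 13.3 CPM in WT (log2 fold change -0.22 ± 0.11, adjusted p = 0.187). Pericyte and smooth muscle genes gave 1 of 14 tested members called higher and 9 lower, with a median of -0.89. Myh11, smooth muscle myosin, stood at 155, 249 and 191 CPM in TNFdARE and 381, 432 and 414 CPM in WT (log2 fold change -1.04 ± 0.17, adjusted p = 0.00642), Tagln fell, with a log2 fold change of -0.75 ± 0.11 and the pericyte gene Rgs5 by -0.55 ± 0.08. Vegfa, the main angiogenic factor, fell from 123 ± 8.63 CPM in WT to 85.2 ± 7.74 CPM in TNFdARE (log2 fold change -0.53 ± 0.09, adjusted p = 0.007). Kdr, Tek, Rgs5 and Vegfa were not called once the muscle covariate was added. No call remained for Sele with all 12 libraries in 1 fit. The endothelium list had 1 higher and 5 lower with all 12 libraries in 1 fit, 3 higher and 0 lower with the muscle covariate, 2 higher without TNFdARE replicate 1 or 3 or WT replicate 1, 2 or 3 and 3 to 4 lower without TNFdARE replicate 2 or 3 or WT replicate 3. The pericyte, smooth muscle list had 0 higher and 5 lower with the muscle covariate.

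Growth factors and lipid mediators changed in both directions. Of 26 growth and colony-stimulating genes 11 were called higher and 4 lower. Csf2, at 0 counts in WT, had 20, 33 and 25 counts in the TNFdARE libraries, and its receptor chain genes Csf2ra and Csf2rb rose by log2 1.04 ± 0.14 and 1.08 ± 0.11. Fgf2, a fibroblast growth factor stored in matrix, stood at 25.5, 27.9 and 25.4 CPM in TNFdARE and 63.4, 52.5 and 64 CPM in WT (log2 fold change -1.19 ± 0.10, adjusted p = 0.000642), and Igf2 fell, with a log2 fold change of -1.0 ± 0.10. Il6, a target of TNF in fibroblasts, stood at 1.81, 0.547 and 5.14 CPM in TNFdARE and 0.78, 0.134 and 0.406 CPM in WT (log2 fold change 2.50 ± 0.93, adjusted p = 0.0999), with a spread among TNFdARE libraries that left the groups overlapping. Relatives were called: Osm rose by log2 1.82 ± 0.24 and Lifr, a receptor of the family, fell, with a log2 fold change of -0.73 ± 0.11. In prostaglandin synthesis, Ptgs2, the inducible cyclooxygenase, stood at 3.12, 4.43 and 14.9 CPM in TNFdARE and 5.39, 1.88 and 1.49 CPM in WT (log2 fold change 1.36 ± 0.77, adjusted p = 0.252), also with wide spread. The next enzyme rose: Ptges stood at 52, 39.1 and 47.4 CPM in TNFdARE and 17.2, 17.8 and 17.8 CPM in WT (log2 fold change 1.39 ± 0.12, adjusted p = 0.000638), and the receptor gene Ptger4 rose by log2 1.21 ± 0.15, while Ptgis, which makes prostacyclin, fell, with a log2 fold change of -0.92 ± 0.11. The leukotriene synthesis genes Alox5 and Alox5ap rose by log2 1.47 ± 0.22 and 1.25 ± 0.17. Under the muscle covariate the calls of Csf2ra, Osm, Alox5 and Alox5ap ended. Calls also ended for Csf2rb with all 12 libraries in 1 fit. The growth factor list had 7 higher and 4 lower with all 12 libraries in 1 fit and 5 higher and 2 lower with the muscle covariate. Il6 (adjusted p = 0.018) was called with the replicate block.

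Genes of pain signalling in the tissue rose in 5 of 12 tested and fell in 0. Bdkrb1, the inducible bradykinin receptor, stood at 11.9, 7.47 and 13.7 CPM in TNFdARE and 0.355, 0.134 and 0.0676 CPM in WT (log2 fold change 5.85 ± 0.47, adjusted p = 0.000539); its pooled counts were 60.2 times higher, with a 95% counting interval of 30.4 to 140. The purine receptor gene P2rx4 rose by log2 0.88 ± 0.09. Neuropeptide genes of sensory neurons, Calca and Tac1, had too few counts to be tested. The pain signalling list had 2 higher and 0 lower with the muscle covariate and 3 higher without TNFdARE replicate 1 or WT replicate 2.

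Genes of the glucocorticoid response and of the circadian clock fell in part together. In the glucocorticoid list 2 of 17 tested members were called higher and 7 lower, with a median log2 fold change of -0.27, and in the clock list 1 of 18 tested members was called higher and 9 lower, with a median log2 fold change of -0.49. Tsc22d3, which encodes GILZ, an anti-inflammatory glucocorticoid target, stood at 97.1, 146 and 122 CPM in TNFdARE and 307, 391 and 457 CPM in WT (log2 fold change -1.67 ± 0.20, adjusted p = 0.00255). Per1, a clock gene that glucocorticoids also induce, stood at 33.7, 63.5 and 63.2 CPM in TNFdARE and 164, 204 and 219 CPM in WT (log2 fold change -1.87 ± 0.27, adjusted p = 0.00645). Klf9 and Ddit4, further targets, fell, with a log2 fold change of -1.10 ± 0.12 and -1.73 ± 0.18, but Fkbp5, the classic target that dampens the receptor, rose by log2 0.76 ± 0.07 (adjusted p = 0.000954). The clock output gene Tef fell, with a log2 fold change of -0.81 ± 0.10, and Arntl, which encodes BMAL1 of the core clock, stood at 37.8, 36.4 and 29.4 CPM in TNFdARE and 39.4, 22.1 and 24.2 CPM in WT (log2 fold change 0.27 ± 0.23, adjusted p = 0.431). The labels give no hour of sampling. The glucocorticoid response list had 4 higher and 7 lower with the replicate block. The circadian clock list had 0 higher and 4 lower with the muscle covariate, 3 higher without WT replicate 1 and 4 to 5 lower without TNFdARE replicate 3 or WT replicate 2 or 3.

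Cell cycle genes had a median log2 fold change of 1.13, and 9 of 20 were called higher and 0 lower. Cdk1, the mitotic kinase, stood at 21.8, 34.3 and 36.1 CPM in TNFdARE and 8.09, 14.2 and 11.8 CPM in WT (log2 fold change 1.43 ± 0.27, adjusted p = 0.0117). Mki67, the proliferation marker, stood at 166, 243 and 248 CPM in TNFdARE and 50.9, 139 and 99.6 CPM in WT (log2 fold change 1.18 ± 0.38, adjusted p = 0.0791), with the lowest TNFdARE library above the highest WT library. The erythroid and marrow list was highest in replicate 2 of both genotypes, and its part in this count was not tested. Of 18 genes of the endoplasmic reticulum stress response, 9 were called higher and 0 lower, with a median of 0.31. Cdk1 lost its call with the muscle covariate. The cell cycle list had 20 higher and 0 lower by DESeq2 or with the replicate block, 19 higher and 0 lower with all 12 libraries in 1 fit, 0 higher and 0 lower with the muscle covariate, 2 to 5 higher without TNFdARE replicate 2 or 3 or WT replicate 1 or 3 and 15 higher without WT replicate 2. The endoplasmic reticulum stress list had 5 higher and 0 lower with all 12 libraries in 1 fit, 0 higher and 0 lower with the muscle covariate and 0 to 4 higher without TNFdARE replicate 1 or 3 or WT replicate 1, 2 or 3. Mki67 (adjusted p = 0.00609) was called with the replicate block.

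**Figure D4:**
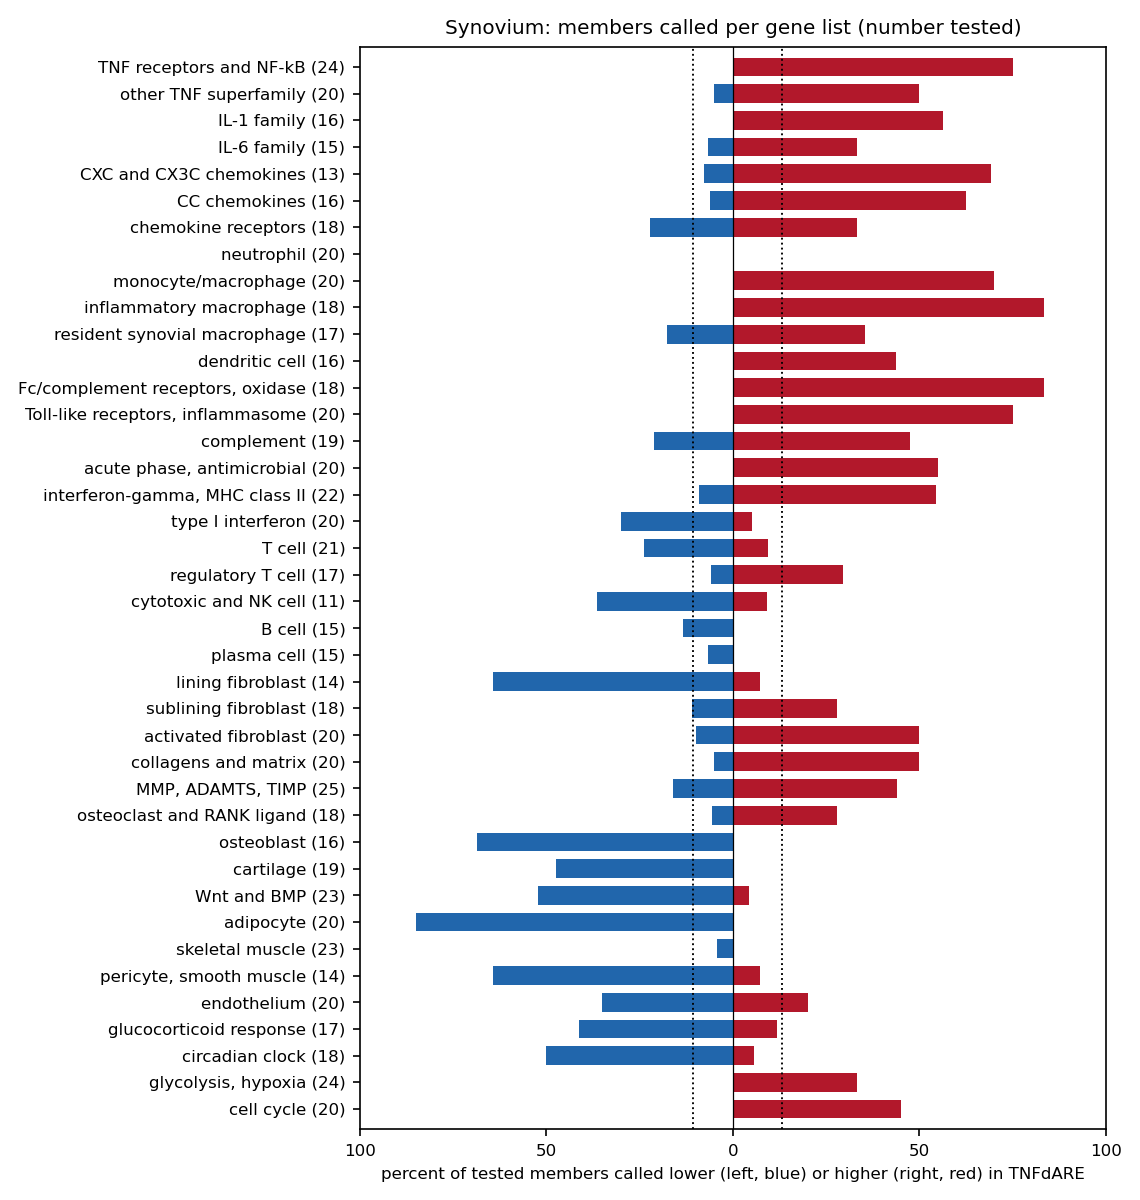
Percent of tested members called lower (blue, left) and higher (red, right) in TNFdARE for 40 gene lists, with the number tested in brackets; dotted lines mark the shares over all genes, 10.7% lower and 13.1% higher. Macrophage, Toll-like receptor and NF-kB lists reach far to the right, and adipocyte, osteoblast and lining fibroblast lists far to the left.

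The effect of the genotype was then set beside that in the ileum by an interaction term over all 12 libraries, in which 2050 of 16964 genes were called, 12.1%, 896 of them with a more positive effect in the synovium (5.28%) and 1154 with a more negative one (6.8%). Leaving out 1 library gave 472 to 1814 more positive and 484 to 1692 more negative genes. Without ileum TNFdARE replicate 2 the positive count alone moved by over 1.5 times (1814, with 1692 negative). Both counts did so without ileum TNFdARE replicate 3 (472 and 553), synovium TNFdARE replicate 3 (499 and 516) or synovium WT replicate 3 (532 and 639). The negative count alone moved that far without ileum WT replicate 1 (513), ileum WT replicate 2 (528), ileum WT replicate 3 (484) or synovium WT replicate 1 (695). Tnf was not among them: its log2 fold change was 4.06 ± 0.15 in the synovium and 4.70 ± 0.68 in the ileum, and the difference was -0.67 ± 0.71 (adjusted p = 0.582). Mmp3 likewise changed by 5.67 ± 0.43 and 4.74 ± 0.82, with a difference of 0.91 ± 0.88 (adjusted p = 0.539). Among genes called, Nos2 rose in the synovium by 5.24 ± 0.32 but stood at 578 ± 132 CPM in TNFdARE and 524 ± 253 CPM in WT in the ileum, a high level in both genotypes; the difference was 5.08 ± 0.58 (adjusted p = 0.00136). Cx3cl1 gave 2.54 ± 0.13 and -0.18 ± 0.10 in the ileum, where its level was 112 ± 14.4 CPM in TNFdARE and 127 ± 0.401 CPM in WT; the difference was 2.70 ± 0.18 (adjusted p = 0.000206). The transporter gene Slc7a2, the inflammasome genes Pycard and Casp1, the fibroblast gene Pdpn and the collagen VI gene Col6a3 also had a more positive effect in the synovium, by 2.43 ± 0.34, 1.42 ± 0.13, 1.07 ± 0.11, 1.36 ± 0.20 and 1.69 ± 0.32. In the other direction, Pla1a fell in the synovium and gave 0.80 ± 0.26 in the ileum, a difference of -3.08 ± 0.22 (adjusted p = 0.000246). Chst2, Fgf2 and Gpx3 differed by -2.85 ± 0.32, -1.48 ± 0.22 and -1.43 ± 0.16. Arg1, with 4.21 ± 0.84, was also called.

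For a further set of genes the effect was more positive in the ileum. Clu fell, with a log2 fold change of -1.11 ± 0.15 in the synovium and rose by log2 4.39 ± 0.60 in the ileum, a difference of -5.52 ± 0.62 (adjusted p = 0.00129). Mfge8, which bridges dying cells to phagocytes, differed by -3.35 ± 0.39 (adjusted p = 0.00136). The neutrophil gene Csf3r and the gelatinase gene Mmp9 rose in the ileum by 5.07 ± 0.64 and 3.99 ± 0.27, where 5.68% of 15462 tested genes were called in either direction, and in the synovium, where their WT levels were 132 and 1175 CPM, they gave -0.30 ± 0.27 and -0.41 ± 0.24. The difference was -5.40 ± 0.68 (adjusted p = 0.00194) for Csf3r and -4.43 ± 0.39 (adjusted p = 0.000417) for Mmp9. S100a8 and S100a9 differed by -7.96 ± 1.69 (adjusted p = 0.0173) and -7.45 ± 1.46 (adjusted p = 0.012); in the WT ileum S100a8 had 2, 0 and 2 counts, near the floor. The interaction of Lyz1, 5.54 ± 0.68 (adjusted p = 0.00169), carries the paralog uncertainty given above. With limma-voom the differences of Arg1, S100a8 and S100a9 were no longer called, and without a filter on low counts that of S100a8 was not called.

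**Figure D5:**
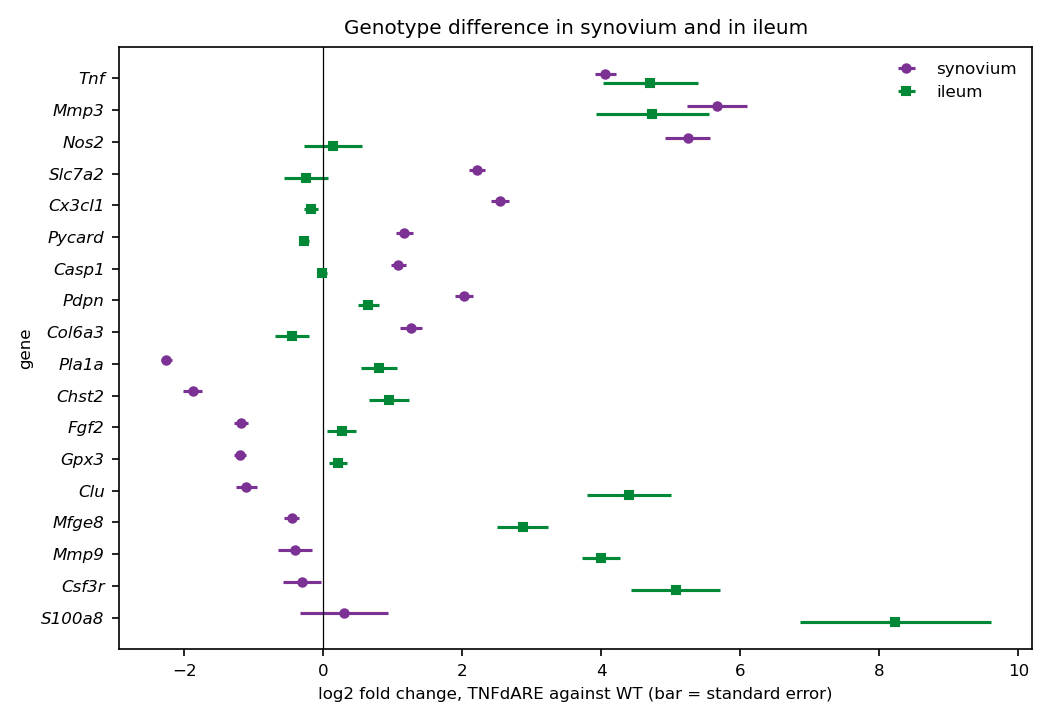
Log2 fold change of TNFdARE against WT with its standard error for 18 genes, purple circles for the synovium and green squares for the ileum. Tnf and Mmp3 rose in both tissues, Nos2, Slc7a2 and Cx3cl1 rose in the synovium, and Clu, Mfge8, Mmp9, Csf3r and S100a8 rose in the ileum.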

How the data were processed

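RNA of ankle synovium and of ileum from TNFdARE mice and WT littermates, 3 libraries per genotype and tissue, was sequenced from poly-A selected, stranded libraries, per the labels' protocols. The authors deposited whole-number read counts per Ensembl gene; read trimming with cutadapt 1.15, alignment software Bowtie2 2.3.3.1 and the build GRCm38 are listed in the submitters' processing notes, and the counting tool, annotation and strand setting are not recorded in those notes or in the labels. Antisense and overlapping genes therefore cannot be separated with certainty. A second deposited table, of FPKM, was not used. Of 46603 genes, 19236 had 0 counts everywhere, and symbols were taken by Ensembl ID from GENCODE (98.7% matched).

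The tests used edgeR 4.0.16 in R 4.3.3 with TMM scaling, filterByExpr and the robust quasi-likelihood F test on the 6 synovium libraries, with Benjamini-Hochberg adjustment, and on all 12 for the difference between tissues; limma 3.58.1 and DESeq2 1.42.0 were alternatives. The standard error is the log2 fold change divided by the square root of F. Scripts were tested on simulated data. Counting intervals and floors cover counting error only. Other scalings, filters, a replicate block, a muscle covariate and leaving out each library were tried. Deviations of same-numbered TNFdARE and WT libraries from their group means correlated at 0.611, 0.362 and 0.232 over 10875 genes, each over 0.1, so the numbers were taken to pair the samples. Differently numbered libraries correlated at -0.577 to 0.286, and the highest of these, TNFdARE replicate 3 with WT replicate 2, exceeded the same-numbered 0.232. The pairing is a hint from the data, since no label states what a number marks.

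Named genes were Tnf, the 12 largest changes and 5 smallest adjusted p in each direction among called genes without overlap at a mean log2 CPM of 1 or more, up to 5 called members of each list by adjusted p, and partners and markers in the same lists; some genes that the rule allows are not reported here, and a few members were chosen after their values were seen. The genes and the 59 lists were chosen with earlier results of these data known. The labels call the libraries biological replicates but name no animals, so p-values measure the spread between these libraries.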

Additional observations from a re-analysis of the deposited data

Results flagged for a closer look

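The interaction term of edgeR's quasi-likelihood fit over 12 libraries gave the difference of the genotype's effect between synovium and ileum. Listed here are the 19 called genes whose difference was given above. For 10 of them the difference, synovium minus ileum on the log2 scale, was negative: S100a8 (-7.96), S100a9 (-7.45), Clu (-5.52), Csf3r (-5.4), Mmp9 (-4.43), Mfge8 (-3.35), Pla1a (-3.08), Chst2 (-2.85), Fgf2 (-1.48) and Gpx3 (-1.43). For 9 it was positive: Lyz1 (5.54), Nos2 (5.08), Arg1 (4.21), Cx3cl1 (2.7), Slc7a2 (2.43), Col6a3 (1.69), Pycard (1.42), Pdpn (1.36) and Casp1 (1.07). Among these 19, adjusted p ran from 0.000206 for Cx3cl1 to 0.0173 for S100a8. The list is not complete, since other genes described above were also called for this difference. Examples are Prg4 (-3.95, not tested in the ileum alone), Clic5 (-1.64), Tnfrsf11b (-1.82), Cxcl13 (3.30) and Casp4 (1.23). In S100a8, S100a9, Csf3r and Mmp9, none of which was called in the synovium, the difference came with a rise in the ileum, and synovium levels of the first of these were highest in replicate 2 of both genotypes. The cause of these differences was not tested.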

How the results depend on the processing

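Of the 198 called genes named in the text, 130 were called under every alternative run, and the genes whose call ended are named beside their values. With the muscle covariate the calls fell to 562 higher and 197 lower genes, and 145 of the 198 named genes were called. With it the adipocyte median went from -1.187 to -1.089 and the lining fibroblast median from -0.862 to -0.867. The osteoblast median went from -0.829 to -0.839 and the cartilage median from -1.224 to -1.725. Those of the cell cycle and fat oxidation lists shrank, from 1.129 to 0.248 and from -0.398 to -0.09. The cause was not tested. Leaving out 1 synovium library gave 1265 to 1670 higher and 863 to 1277 lower genes, with fewer samples in the fit. With replicate number as a block, the pairing described under processing, 2441 genes were higher and 2401 lower, and Mmp13 was the 1 named gene whose call ended. Of the named genes not called, 9 were called with it; these, and described lists whose counts it moved by over 1.5 times and at least 2 genes, are given beside their values, and it changed no other call of a named gene. For the difference between tissues, limma-voom gave 746 negative genes, and leaving out 1 of 12 libraries gave 472 to 1814 positive and 484 to 1692 negative genes; the block gave 1037 and 1583. Of the 19 called genes whose difference is listed above, 16 were called under every alternative. That set was chosen, and some other described genes with a called difference held it less well. The calls of Acod1, Ccl17, Cxcl13 and Saa1 ended with limma-voom. Calls also ended in fits without 1 library, 10 for Acod1, 7 for Ccl17 and 3 for Cxcl13. Tnfrsf11b, Clic5, Casp4, Relb and Bdkrb1 kept theirs throughout. Values that changed sign belonged to genes that were not called. With the muscle covariate these were Acta1 (0.064), Mpo (-1.434), S100a8 (-1.082) and Vcam1 (-0.342). Acta1 is itself part of that covariate. Over the fits without 1 library, Cxcr2 ranged from -0.676 to 0.079, Mpo from -0.248 to 1.203, S100a8 from -0.376 to 0.862, Vcam1 from -0.098 to 0.291 and the tissue difference of Tnf from -0.978 to 0.017. At this depth a gene with few counts, such as Foxp3, can move across the threshold with 1 library.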
